A study of Homo sapiens with 48 samples.

Results

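The secreted growth factors examined here were 10 genes chosen by name from the 29744 genes measured: the EGF family ligands HBEGF, EREG and NRG1, the FGF family ligands FGF2, FGF5 and FGF7, the hepatocyte growth factor HGF, and the PDGF family ligands PDGFA, PDGFC and PDGFD. The ligands and the gene lists below were chosen with earlier results of these data known. Their counts beside shares of all genes are therefore descriptions. Counts allowed a test for 8 of the 10 ligands, and HGF and PDGFD were too low. RNA-seq was performed on IL11mNG fibroblasts, an immortalized human skin fibroblast line whose IL11 gene carries an mNeonGreen fluorescent reporter. In the CRISPRko arm the cells carried the nuclease Cas9 with a control guide (H47_Ctrl) or a guide against the transcription factor gene GLIS3 (H47_KO), and in the CRISPRa arm they carried the activator dCas9-VP64 with a control guide or a guide that recruits it to GLIS3 (populations described as VP64_Ctrl and VP64_A). Each population was stimulated with TGFβ and IL-1β at 10 ng/ml each for 0, 6, 12 or 24 h, which gave 16 conditions of 3 libraries and 48 libraries in all. These were selected populations of transduced cells from a reporter line grown from single cells, so an H47_KO population can hold cells with different edits. In the CRISPRa arm the sample titles and genotype entries name VP64_Ctrl as the activated population and the descriptions name VP64_A, and as GLIS3 was higher in every library described as VP64_A, directions are given between the populations as described.

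EGF family ligands are made as membrane proteins that metalloproteinases such as ADAM17 release, and they bind the receptor tyrosine kinases EGFR, ERBB3 and ERBB4. FGFs bind FGFR1 to FGFR4 and need heparan sulfate, and FGF7, a stromal signal to epithelium, acts on the epithelial form of FGFR2. HGF binds MET, and PDGFs bind PDGFRA and PDGFRB, with PDGFC and PDGFD secreted in a latent form that proteases such as plasmin or urokinase open. Fibroblasts use several of these ligands in wound repair, on themselves and on neighbouring epithelium and vessels. Expression is given below as normalised CPM, the estimated counts as a rate per library after TMM scaling within an arm, and a gene passed the test where its p in edgeR's quasi-likelihood test, adjusted over the whole table by the Benjamini-Hochberg method, was under 0.05.

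Stretches of promoter are printed for the 3 ligands with the largest rise after stimulation (HBEGF, EREG and FGF2) and for the other FGFs, as RefSeq places them on GRCh38.p14; 8 of the 10 ligands had an entry, NRG1 and PDGFC being without. Each stretch runs 5′ to 3′ on the strand of the gene through the 250 bases before a RefSeq start, or as many of them as lie outside the gene. EREG is at chr4:74364895-74365144 (+ strand), FGF2 at chr4:122826581-122826681 (+ strand), HBEGF at chr5:140346604-140346853 (− strand), FGF5 at chr4:80266338-80266587 (+ strand) and FGF7 at chr15:49422992-49423236 (+ strand). Capitals mark motif matches.
EREG: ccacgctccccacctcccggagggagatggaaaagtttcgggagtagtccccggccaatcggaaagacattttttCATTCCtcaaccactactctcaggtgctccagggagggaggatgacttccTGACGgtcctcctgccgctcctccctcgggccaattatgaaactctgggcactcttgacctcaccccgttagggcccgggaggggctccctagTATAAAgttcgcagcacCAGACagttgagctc
FGF2: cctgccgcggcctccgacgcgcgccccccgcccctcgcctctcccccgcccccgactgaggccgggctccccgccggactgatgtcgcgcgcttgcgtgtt
HBEGF: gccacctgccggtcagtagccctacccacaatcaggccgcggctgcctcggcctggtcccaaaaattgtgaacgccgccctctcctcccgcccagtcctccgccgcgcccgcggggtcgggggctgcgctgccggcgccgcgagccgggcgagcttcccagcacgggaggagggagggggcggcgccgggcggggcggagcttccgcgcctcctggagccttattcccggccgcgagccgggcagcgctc
FGF5: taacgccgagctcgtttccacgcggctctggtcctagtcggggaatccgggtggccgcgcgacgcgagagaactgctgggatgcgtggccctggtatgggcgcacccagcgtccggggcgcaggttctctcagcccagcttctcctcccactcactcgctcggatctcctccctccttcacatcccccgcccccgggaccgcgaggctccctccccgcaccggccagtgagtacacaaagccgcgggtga
FGF7: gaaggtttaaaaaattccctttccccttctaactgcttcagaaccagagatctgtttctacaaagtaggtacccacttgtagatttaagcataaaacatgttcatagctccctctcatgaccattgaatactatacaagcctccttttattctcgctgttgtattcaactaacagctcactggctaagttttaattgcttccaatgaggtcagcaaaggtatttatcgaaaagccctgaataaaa
The first capitals of the EREG stretch are a TEAD motif read on the other strand, 175 bases before the start. The core of a CRE follows at 125 bases, a TATA box at 32 bases and a SMAD box at 15 bases before the start. The other 4 stretches held none of the motifs searched on both strands. Searched bases outside them held a CRE core 21 bases before the RefSeq start of FGF2 and, before another RefSeq start of FGF5, a SMAD box and TATA boxes on both strands. Of 35116 human promoter stretches of 250 bases, the TEAD motif GGAATG was found in 11.9%, the CRE core TGACG in 21.2%, the TATA box TATAAA in 10.7% and the SMAD box CAGAC in 38%. The remaining motifs searched were TGANTCA (AP-1, 6.57% of promoters), TGACGTCA (full CRE, which contains this core, 1.65%), the NF-κB motif (22.6%) and TGGGTGGTC (GLI, 0.199%). A match describes letters alone, and the absence of one says only that these letters are not in the stretch. Base composition differed between these ligands, with 80.2% G and C in the FGF2 stretch, 76.4% in HBEGF, 68.8% in FGF5, 58% in EREG and 37.6% in FGF7, which held 2 CpG dinucleotides against 33 in HBEGF.

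On GRCh38 the gene HBEGF lies at chr5:140332843-140346603, and EREG at chr4:74365145-74388749. The FGF genes lie at chr4:122826682-122898236 (FGF2), chr4:80266639-80336680 (FGF5) and chr15:49423237-49488775 (FGF7). HGF lies at chr7:81699010-81770438, PDGFA at chr7:497258-520296, PDGFC at chr4:156760454-156971799 and PDGFD at chr11:103907189-104164379, and NRG1 is on chromosome 8. On the same strand FGF5 shares exon bases with CFAP299, and NRG1 with a gene that has no symbol. PDGFD shares exon bases with DDI1 on the opposite strand. The counts of these partners are not given here. FGF2 shares exon bases with NUDT6 on the opposite strand. With the strand used in counting not given in the sources used here, reads of that pair cannot be told apart there, although NUDT6 had 0 to 24.6 estimated counts a library (median 2.98) against a median of 553 for FGF2.

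Libraries held 2321990 to 10661004 estimated counts, and the 50 most abundant genes took 23.1% to 46.4% of them. GLIS3 was at 1.55 to 8.63 CPM in the 12 H47_Ctrl libraries and 0.146 to 2.46 CPM in H47_KO, and at 2.31 to 5.29 CPM in VP64_Ctrl and 13.5 to 38 CPM in VP64_A. All 10 fibroblast markers were detected, with a summed level of 19584 to 57648 CPM, and EPCAM, KDR, LYZ, C1QA, C1QB and AIF1 were at 0 in every library. Of the 7 macrophage markers 2 or 3 exceeded 3 counts in a population (summed level 16.9 to 80.6 CPM), as did 1 of the 4 endothelial markers (0 to 2.75 CPM) and none of the 4 lymphocyte markers. Of the 7 epithelial markers, 4 exceeded 3 counts in VP64_A, 3 in VP64_Ctrl and in H47_Ctrl and 2 in H47_KO. In bulk RNA, fewer cells that express a gene and less RNA per cell cannot be told apart.

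Stimulation with TGFβ and IL-1β changed most of the ligands tested, and the order of their responses differed. HBEGF rose at 6 h and at 24 h was at most 2.26-fold above its starting level, EREG and FGF2 rose at every time, PDGFC rose more slowly, and FGF5, the most abundant ligand before stimulation, fell by 12 h in 3 of 4 populations. PDGFA did not pass the test at any time. At 6 h, 6 of the 8 ligands were higher in H47_Ctrl (10.3% of all genes tested were higher and 15.9% passed in either direction), 5 in H47_KO (13.2% higher, 23.9% in either direction), 5 in VP64_Ctrl (16.2% and 28.8%) and 6 in VP64_A (11.4% and 17.4%), and none was lower. At 12 h the ligands that passed were 4 higher and 1 lower in H47_Ctrl (background 19.6%), 4 and 1 in H47_KO (27.4%), 3 and 1 in VP64_Ctrl (26.8%) and 4 and 0 in VP64_A (19.7%). At 24 h they were 5 higher and 1 lower in H47_Ctrl (10.3%), 3 and 1 in H47_KO (15.8%), 4 and 1 in VP64_Ctrl (16%) and 3 and 0 in VP64_A (13.6%). The median log2 fold change of the 8 ligands at 6 h was 0.91, 0.84, 0.82 and 0.86 in these 4 populations, where that of all genes was between −0.10 and −0.01. As the ligands were chosen with earlier results of these data known, these counts and medians beside all genes are a description.

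**Figure D1:**
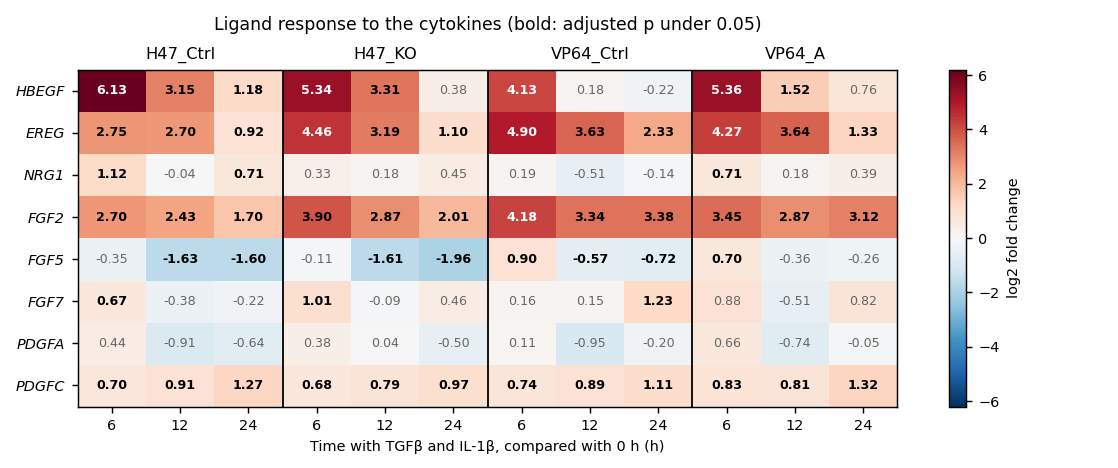
Log2 fold change of the 8 ligands tested at 6, 12 and 24 h against 0 h in each of the 4 cell populations (edgeR), with the value in each cell, in bold where the adjusted p was under 0.05. HBEGF, EREG and FGF2 were higher at 6 h in all 4 populations and FGF5 was lower at 12 h in 3 of them.

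HBEGF, a heparin-binding ligand of EGFR and ERBB4, rose at 6 h in all 4 populations and had the largest fold at that time in 3 of them, the exception being VP64_Ctrl. In H47_Ctrl it was at 1.89, 2.58 and 3.78 CPM at 0 h, 161, 214 and 173 CPM at 6 h, 25, 23.9 and 20.3 CPM at 12 h and 5.14, 5.14 and 7.13 CPM at 24 h. In H47_KO the libraries held 1.59, 5.63 and 4.74 CPM at 0 h, 170.4, 184 and 147 CPM at 6 h, 41.5, 41.5 and 39.9 CPM at 12 h and 5.60, 4.85 and 5.37 CPM at 24 h. Every library of this arm at 6 h exceeded every library at the other times. In VP64_Ctrl the values were 5.54, 4.64 and 3.89 CPM at 0 h, 82.2, 89.3 and 80.0 CPM at 6 h, 5.53, 6.38 and 3.98 CPM at 12 h and 2.09, 5.51 and 5.11 CPM at 24 h. In VP64_A they were 1.29, 2.39 and 0.659 CPM at 0 h, 51.9, 77.3 and 55.9 CPM at 6 h, 3.45, 4.36 and 4.69 CPM at 12 h and 4.18, 0.686 and 2.37 CPM at 24 h. Here too the 6 h libraries stood above all others, but the 12 h libraries of VP64_Ctrl already overlapped those at 0 h.

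At 6 h HBEGF was 70.1-fold higher in H47_Ctrl (log2 fold change 6.13 ± 0.25 (SE), adjusted p = 2.6e-19, edgeR), 40.4-fold in H47_KO, 17.6-fold in VP64_Ctrl and 41.2-fold in VP64_A. At 12 h it was still 8.86-fold higher in H47_Ctrl and 9.94-fold higher in H47_KO, 2.86-fold in VP64_A (adjusted p = 0.0051, edgeR), and not past the test in VP64_Ctrl (log2 fold change 0.18 ± 0.32, adjusted p = 0.711). From 6 to 24 h HBEGF fell 31-fold in H47_Ctrl, 20.5-fold in VP64_Ctrl and 24.4-fold in VP64_A. The 2.26-fold higher level at 24 h in H47_Ctrl (adjusted p = 0.0142, edgeR) rested on few counts: it was lost without 0 h replicate 1 (log2 fold change 0.93), 0 h replicate 2 (1.17) or 24 h replicate 3 (0.99), with an adjusted p of up to 0.122, and on the log2(TPM + 1) scale. The 12 h call in VP64_A was also lost on that scale (0.78, adjusted p = 0.125, limma).

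**Figure D2:**
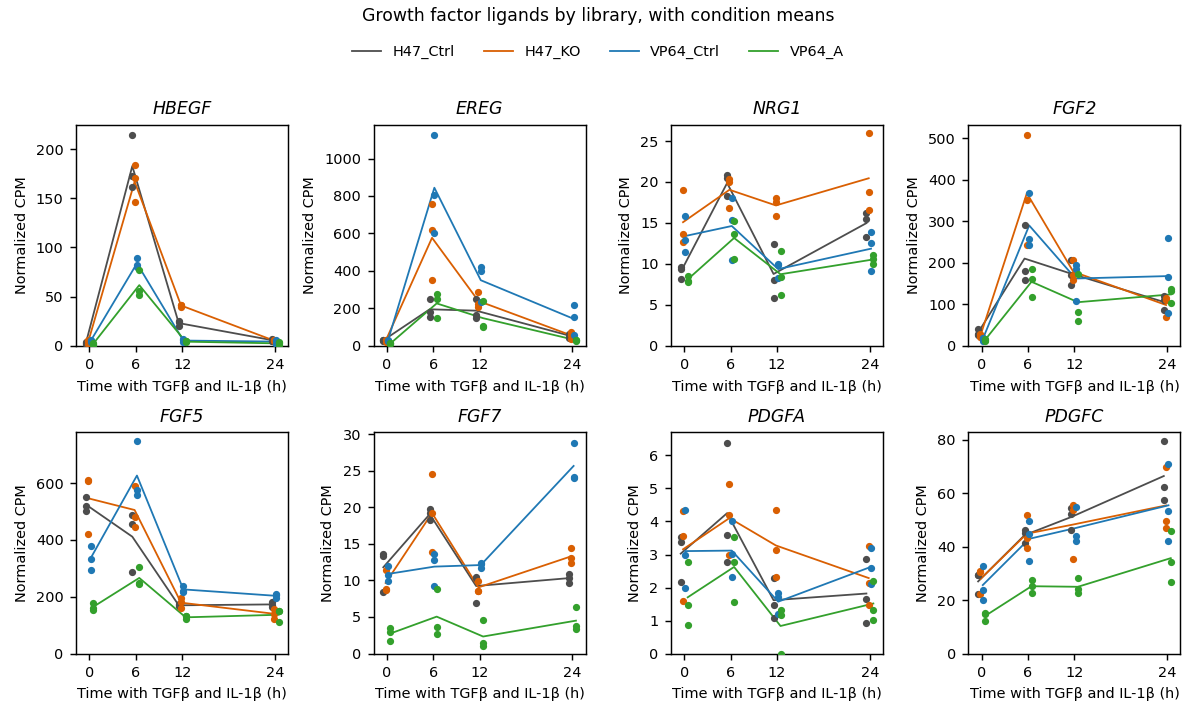
Normalised CPM of the 8 ligands tested in each of the 48 libraries (linear axes from 0, 1 panel a ligand) against hours of TGFβ and IL-1β, with points for libraries and lines through the means of 3 libraries in each cell population. HBEGF at 6 h lay between 51.9 and 214 CPM and at 24 h between 0.686 and 7.13 CPM.

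EREG encodes epiregulin, a ligand of EGFR and ERBB4. At 24 h its rise passed the test in all 4 populations, and that of HBEGF in H47_Ctrl alone. In H47_Ctrl it was at 29, 26.7 and 31.1 CPM at 0 h, 155, 249.96 and 179.9 CPM at 6 h, 248, 166 and 149 CPM at 12 h and 42.4, 59.4 and 62.8 CPM at 24 h. In H47_KO it was at 30.2, 17.9 and 30.5 CPM at 0 h, 617, 759 and 354 CPM at 6 h, 206, 287 and 225 CPM at 12 h and 72.2, 38.5 and 55.4 CPM at 24 h. The H47_KO libraries at 6 h were the highest of this arm, above all 3 of H47_Ctrl. In VP64_Ctrl the libraries held 25.6, 31.8 and 27.2 CPM at 0 h, 601, 806 and 1125 CPM at 6 h, 234, 419 and 397 CPM at 12 h and 153, 220.3 and 58.6 CPM at 24 h. In VP64_A they held 13.1, 12.2 and 9.56 CPM at 0 h, 277, 252 and 149.8 CPM at 6 h, 236, 107 and 98.5 CPM at 12 h and 29.2, 33.3 and 26.5 CPM at 24 h. In all 4 populations each library after stimulation exceeded each library at 0 h.

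EREG rose 6.74-fold at 6 h in H47_Ctrl (log2 fold change 2.75 ± 0.27, adjusted p = 9.71e-10, edgeR), 22-fold in H47_KO, 29.8-fold in VP64_Ctrl and 19.3-fold in VP64_A. At 12 h the folds were 6.49, 9.12, 12.4 and 12.4 in the same order, and at 24 h they were 1.89, 2.14, 5.04 and 2.52, all past the test. The 24 h rise in H47_Ctrl (adjusted p = 0.0227, edgeR) was lost without 0 h replicate 1 or 2 or 24 h replicate 2 or 3 (adjusted p up to 0.123), and that in VP64_A without 0 h replicate 3 (log2 fold change 1.20, adjusted p = 0.067). On the log2(TPM + 1) scale these 24 h rises were 0.63 (adjusted p = 0.276, limma) and 0.88 (adjusted p = 0.107).

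NRG1, neuregulin 1, binds ERBB3 and ERBB4 and changed little. Its libraries ranged from 5.88 to 26 CPM over the whole series. In H47_Ctrl it was at 9.59, 9.34 and 8.10 CPM at 0 h and 18.3, 20.5 and 20.9 CPM at 6 h, without overlap, a 2.18-fold rise (adjusted p = 0.000329, edgeR). VP64_A rose 1.63-fold at 6 h (adjusted p = 0.0329, edgeR), from 7.81, 7.92 and 8.57 CPM to 15.2, 13.7 and 10.6 CPM, and lost the call without any of its 0 h libraries or 6 h replicate 1 or 2 (adjusted p up to 0.147) and with no filter on low counts. H47_KO and VP64_Ctrl did not pass at any time in edgeR, with log2 fold changes of 0.33 and 0.19 at 6 h. On the log2(TPM + 1) scale NRG1 was lower in VP64_Ctrl at 12 h (−1.16, adjusted p = 0.0131, limma). The 1.64-fold higher level in H47_Ctrl at 24 h (adjusted p = 0.0447, edgeR) was lost without any 1 of 15 libraries, namely those of H47_Ctrl at 0, 6 or 24 h and of H47_KO at 6 or 12 h (adjusted p up to 0.171), and under DESeq2 (0.0563).

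FGF2, basic fibroblast growth factor, lacks a classical signal peptide and reaches the outside of the cell by an unconventional route. It was low before stimulation and stayed raised to 24 h. In H47_Ctrl it was at 41.3, 29.5 and 24.9 CPM at 0 h, 159, 291 and 181 CPM at 6 h, 207, 169 and 145 CPM at 12 h and 87.4, 119.6 and 109.9 CPM at 24 h. In H47_KO it was at 27.8, 20.9 and 24.9 CPM at 0 h, 352, 508 and 242 CPM at 6 h, 171, 207 and 158 CPM at 12 h and 114, 69.5 and 111 CPM at 24 h. No library after stimulation overlapped those at 0 h in either population. VP64_Ctrl held 18.4, 11.9 and 17.7 CPM at 0 h, 258, 243 and 369 CPM at 6 h, 107, 194 and 185 CPM at 12 h and 166, 259 and 79.0 CPM at 24 h. VP64_A held 13.7, 12.6 and 16.5 CPM at 0 h, 185, 160.3 and 117 CPM at 6 h, 174, 82.4 and 58.8 CPM at 12 h and 133, 137 and 102 CPM at 24 h. The libraries of the CRISPRa arm at 24 h overlapped those at 12 h.

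The rise of FGF2 at 6 h was 6.51-fold in H47_Ctrl (log2 fold change 2.70 ± 0.25, adjusted p = 4.08e-10, edgeR), 15-fold in H47_KO, 18.1-fold in VP64_Ctrl and 10.9-fold in VP64_A. At 24 h FGF2 was 3.26-fold, 4.04-fold, 10.4-fold and 8.71-fold above 0 h in these populations. Between 6 and 24 h it fell 3.71-fold in H47_KO (adjusted p = 3.38e-07, edgeR) and less in H47_Ctrl (log2 fold change −0.999 ± 0.24, adjusted p = 0.00353), the latter lost without 6 h replicate 2 (log2 fold change −0.69, adjusted p = 0.060). In VP64_Ctrl and VP64_A the change was −0.79 (adjusted p = 0.0735) and −0.32 (0.566), which did not pass. With no filter on low counts the fall in VP64_Ctrl did pass (−0.80, adjusted p = 0.000252, edgeR). Whether the arms differed in this change was not tested.

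FGF5, known as a regulator of the hair cycle, was the most abundant ligand at 0 h. In H47_Ctrl it was at 501, 519 and 552 CPM at 0 h, 288, 488 and 457 CPM at 6 h, 169, 166 and 174 CPM at 12 h and 164, 183 and 172 CPM at 24 h. In H47_KO it was at 605, 612 and 422 CPM at 0 h, 481, 588 and 446 CPM at 6 h, 181, 196 and 160.0 CPM at 12 h and 156, 123 and 141 CPM at 24 h. All libraries of this arm at 12 and 24 h lay below all those at 0 and 6 h. In VP64_Ctrl FGF5 was at 334, 377 and 293 CPM at 0 h, 559, 574 and 746 CPM at 6 h, 220.2, 218 and 239 CPM at 12 h and 205, 209 and 195 CPM at 24 h. VP64_A held 159, 154 and 176 CPM at 0 h, 249, 305 and 244 CPM at 6 h, 120.1, 130.3 and 132 CPM at 12 h and 149.6, 111 and 149 CPM at 24 h. In the CRISPRa arm the 6 h libraries were the highest of each population.

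By 24 h FGF5 was 3.03-fold lower in H47_Ctrl (log2 fold change −1.60 ± 0.19, adjusted p = 1.45e-07, edgeR) and 3.89-fold lower in H47_KO, with like falls at 12 h (3.09-fold and 3.05-fold). In VP64_Ctrl it rose 1.87-fold at 6 h (adjusted p = 6.72e-05, edgeR), then was 1.48-fold lower than at 0 h at 12 h and 1.65-fold lower at 24 h. In VP64_A it rose 1.63-fold at 6 h (adjusted p = 0.00192, edgeR) and did not pass at 12 or 24 h (log2 fold change −0.36 and −0.26). These 6 h rises were 0.15 (adjusted p = 0.503, limma) and 0.43 (0.145) on the log2(TPM + 1) scale and did not pass there. On that scale falls passed in VP64_A at 12 h (−0.65, adjusted p = 0.0196, limma) and at 24 h (−0.57, 0.0499). A fall in H47_KO at 6 h also passed there (−0.56, adjusted p = 0.0140, limma). The 12 h fall in VP64_Ctrl had an adjusted p of 0.0551 (edgeR) in a fit of the compared libraries alone. From 6 to 24 h FGF5 fell in all 4 populations (log2 fold changes −1.25, −1.85, −1.62 and −0.96), all past the test.

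FGF7, keratinocyte growth factor, was low, at 0.968 to 28.8 CPM. In VP64_Ctrl it was at 11.9, 9.94 and 10.8 CPM at 0 h, 12.7, 13.6 and 9.27 CPM at 6 h, 12.2, 12.4 and 11.7 CPM at 12 h and 23.9, 28.8 and 24.1 CPM at 24 h, so that only the 24 h libraries stood apart. In H47_Ctrl it went from 13.6, 13.4 and 8.37 CPM at 0 h to 19.7, 18.3 and 19.1 CPM at 6 h and 9.71, 10.3 and 10.9 CPM at 24 h. H47_KO held 8.84, 8.65 and 11.5 CPM at 0 h and 19.2, 13.9 and 24.5 CPM at 6 h. At 24 h H47_KO held 12.4 to 14.5 CPM, also above all its 0 h libraries, but this rise did not pass the test. The rises that passed were thus at 6 h in the CRISPRko arm and at 24 h in VP64_Ctrl.

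FGF7 rose 2.01-fold at 6 h in H47_KO (adjusted p = 0.00126, edgeR) and 1.59-fold in H47_Ctrl (adjusted p = 0.031), and it rose 2.34-fold at 24 h in VP64_Ctrl (adjusted p = 0.00378, edgeR). On the log2(TPM + 1) scale none of the 3 passed (0.42, 0.54 and 0.75, limma). The H47_Ctrl call was lost without 0 h replicate 3 or any 6 h library (adjusted p up to 0.171) and with no filter (0.0673). VP64_A did not pass at any time, with log2 fold changes of 0.88, −0.51 and 0.82.

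HGF, the ligand of MET, was detected in the CRISPRko arm alone. It had 39 estimated counts in all over 15 of the 24 libraries of that arm, with at most 6 in 1 library and 0.332 CPM over the pooled arm. In the 24 libraries of the CRISPRa arm it had 0, which at a floor of 3 counts over the arm allows up to 0.022 CPM, so that HGF was at least 15.1-fold higher in the CRISPRko arm. With these counts no test by time or guide was made, and the floor covers counting error only. The arm cannot be told apart from the Cas9 construct, the guide vector or the clone.

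Among the PDGFs, PDGFC rose in all 4 populations at every time. In H47_Ctrl it was at 29.6, 29.3 and 22.2 CPM at 0 h, 41.4, 45.2 and 46.4 CPM at 6 h, 52.2, 54.6 and 46.4 CPM at 12 h and 57.7, 79.5 and 62.3 CPM at 24 h, with each stimulated library above each at 0 h. VP64_A held 14.9, 15.3 and 12.0 CPM at 0 h, 27.7, 25.4 and 22.5 CPM at 6 h, 28.4, 24.1 and 22.5 CPM at 12 h and 26.9, 46 and 34.3 CPM at 24 h, again without overlap with 0 h. At 24 h PDGFC was 2.41-fold higher in H47_Ctrl (log2 fold change 1.27 ± 0.19, adjusted p = 6e-06, edgeR), 1.96-fold in H47_KO, 2.16-fold in VP64_Ctrl and 2.5-fold in VP64_A.

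The rises of PDGFC at 6 h (1.62-fold, 1.6-fold, 1.67-fold and 1.78-fold in H47_Ctrl, H47_KO, VP64_Ctrl and VP64_A) and 12 h (1.87-fold, 1.73-fold, 1.85-fold and 1.75-fold) all passed. At 6 h the call was lost in H47_Ctrl without 0 h replicate 3 (log2 fold change 0.59, adjusted p = 0.0537, edgeR), in H47_KO without 0 h replicate 2 (0.54) or 6 h replicate 2 (0.60), and in VP64_Ctrl without 6 h replicate 2 (0.62). On the log2(TPM + 1) scale all of the 6 and 12 h rises and the 24 h rise in VP64_Ctrl (0.79, adjusted p = 0.0635, limma) failed the test. PDGFA, which pairs into the PDGF-AA dimer that binds PDGFRA, was at 0 to 6.38 CPM and 0 to 36 estimated counts in a library, with log2 fold changes from −0.95 to 0.66 and no adjusted p under 0.175. PDGFD had 2 estimated counts in 2 libraries of the CRISPRko arm, both H47_KO at 6 h, and 4 in 1 library of the CRISPRa arm, VP64_A at 0 h. PDGFD was thus not measurable at this depth.

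A direct comparison of 24 h with 6 h, added after the time courses were seen, gave 5 ligands lower and 1 (PDGFC) higher in H47_Ctrl (14.6% of all genes passed), 4 lower in H47_KO (24.2%), 3 lower and 1 (FGF7) higher in VP64_Ctrl (18.4%) and 3 lower in VP64_A (12.5%). HBEGF, EREG and FGF5 were the 3 that fell in all 4 populations. The log2 fold changes of EREG were −1.84, −3.36, −2.56 and −2.94 in the order above. The 2.09-fold higher FGF7 in VP64_Ctrl (adjusted p = 0.0169, edgeR) was lost without 6 h replicate 1 or 3 or 24 h replicate 2 (adjusted p up to 0.0664), and the rise of PDGFC in H47_Ctrl (log2 fold change 0.57, adjusted p = 0.0291) was lost without any 6 h library, 24 h replicate 2 or 3, or H47_KO 6 h replicate 1 (adjusted p up to 0.214), and on the log2(TPM + 1) scale.

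Levels of different ligands were set side by side only in TPM, which accounts for transcript length. At 0 h FGF5 came first in every population, at 159 ± 3.96 TPM (SD, n = 3) in H47_Ctrl, 162 ± 14.7 in H47_KO, 124 ± 20.1 in VP64_Ctrl and 46.3 ± 2.18 in VP64_A, and no library of PDGFC, the second at 8.16 to 20.3 TPM on average, reached it. At 6 h the first place changed. HBEGF (127 ± 26.2 TPM) and FGF5 (114 ± 4.48 TPM) overlapped in H47_Ctrl, as did EREG (144 ± 40.4 TPM) and FGF5 (109 ± 4.65 TPM) in H47_KO. EREG stood above FGF5 without overlap in VP64_Ctrl (212 ± 32.9 against 138 ± 14 TPM) and with overlap in VP64_A (64.7 ± 28.4 against 63.2 ± 9.93 TPM). At 24 h FGF5 was first again, at 45.1 TPM in H47_Ctrl, 47.2 in H47_KO, 57.8 in VP64_Ctrl and 31.1 in VP64_A on average, but its libraries overlapped those of PDGFC in H47_KO and those of EREG in VP64_Ctrl. PDGFA, HGF and PDGFD filled the lowest places in most conditions.

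**Figure D3:**
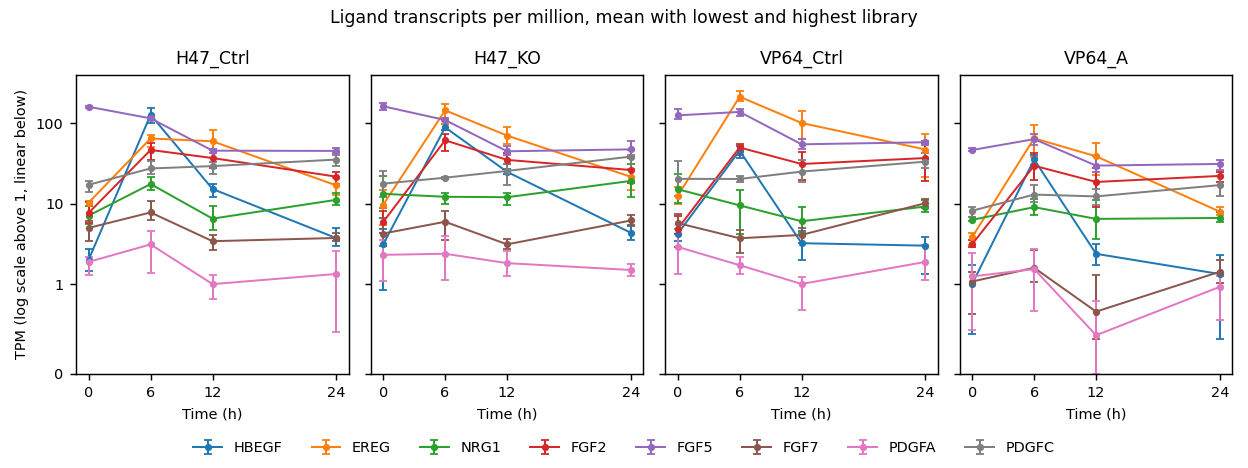
Mean TPM of the 8 ligands tested (axis logarithmic above 1 and linear below) before and after stimulation in the 4 cell populations, with bars from the lowest to the highest of 3 libraries. FGF5 had the highest mean at 0 and 24 h. At 24 h its libraries overlapped those of PDGFC in H47_KO and of EREG and FGF2 in VP64_Ctrl. HBEGF or EREG had the highest mean at 6 h.

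Knockout of GLIS3 was compared with its control at each time. Of the 32 comparisons of a ligand at a time, 1 passed: EREG at 6 h, which was 2.96-fold higher in H47_KO (log2 fold change 1.56 ± 0.25, adjusted p = 0.00128, edgeR), with 617, 759 and 354 CPM against 155, 249.96 and 179.9 CPM. None passed at 0, 12 or 24 h. Few genes of any kind passed in this comparison: 0.301% at 0 h, 0.319% at 6 h, 0.0821% at 12 h and 0.21% at 24 h. An unadjusted p under 0.05 was reached by 7 of the 32, and the share of all genes at that threshold is not given here. On the log2(TPM + 1) scale EREG at 6 h was 1.12 higher with an adjusted p of 0.141 (limma) and did not pass.

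HBEGF at 12 h was at 41.5, 41.5 and 39.9 CPM in H47_KO and at 25, 23.9 and 20.3 CPM in H47_Ctrl, without overlap, but did not pass (log2 fold change 0.83 ± 0.20, adjusted p = 0.128, edgeR). FGF2 at 6 h was 0.80 ± 0.23 higher on the log2 scale (adjusted p = 0.131) with overlapping libraries. DESeq2 called both (adjusted p = 0.024 and 0.029), as did edgeR with no filter (adjusted p = 0.00647 and 0.00293), and a fit of the compared libraries alone called HBEGF (adjusted p = 0.0269). NRG1 was higher in every H47_KO library than in every H47_Ctrl library at 0 h (0.74, adjusted p = 0.136), at 12 h (0.95, adjusted p = 0.146) and at 24 h (0.47, adjusted p = 0.475), none past the test. FGF5 (−0.30 to 0.30), FGF7 (−0.31 to 0.37), PDGFA (−0.01 to 1.00) and PDGFC (−0.26 to 0.03) did not pass at any time. Libraries did not overlap for FGF5 at 24 h (lower in H47_KO), FGF7 at 24 h (higher) and PDGFA at 12 h (higher, at 2.33 CPM or more against 2.29 CPM or less).

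The change in the knockout effect from 0 h to a later time was tested as an interaction. An unadjusted p under 0.05 was reached by 5 of the 24, and the share of all genes at that threshold is not given here. In edgeR 0 of 24 passed, with 1 by DESeq2 and 2 with no filter on low counts. The nearest was EREG at 6 h, at 1.70 ± 0.36 on the log2 scale (adjusted p = 0.126, edgeR), which DESeq2 called (1.74, adjusted p = 0.00368). FGF2 at 6 h was at 1.20 ± 0.35 (adjusted p = 0.293). Over all genes, 0.00912% passed this test at 6 h and 0% at 12 and at 24 h.

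In VP64_A, whose GLIS3 was higher, the ligands were lower than in VP64_Ctrl. All 32 log2 fold changes were below 0, and 17 passed the test, all lower. At 0 h 6 of the 8 ligands passed (5.12% of all genes were lower, 9.41% passed in either direction), 4 at 6 h (1.9% and 3.76%), 4 at 12 h (1.94% and 4.31%) and 3 at 24 h (2.13% and 4.13%). The median log2 fold change of the ligands was −0.95, −0.83, −0.74 and −0.66 at these times, and that of all genes was between −0.02 and 0.01. This too is a description, as the ligands were chosen with earlier results of these data known. On the log2(TPM + 1) scale 30 of 32 were below 0, with NRG1 at 6 and 12 h above. With each library left out in turn, NRG1 at 12 h turned positive without VP64_A replicate 1 or 3 or VP64_Ctrl replicate 2 or 3, as did FGF2 at 24 h without VP64_Ctrl replicate 2.

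FGF7 was lower in VP64_A at every time. It was at 1.72, 3.52 and 2.97 CPM in VP64_A and 11.9, 9.94 and 10.8 CPM in VP64_Ctrl at 0 h, and at 3.39, 3.77 and 6.32 CPM against 23.9, 28.8 and 24.1 CPM at 24 h, with no overlap at any time. The level was 4.07-fold lower at 0 h (log2 fold change −2.02 ± 0.34, adjusted p = 0.000134, edgeR), 2.48-fold at 6 h, 6.43-fold at 12 h and 5.41-fold at 24 h. At 6 h the call was lost without VP64_A replicate 1 or 2 or VP64_Ctrl replicate 1 or 2 (adjusted p up to 0.202) and on the log2(TPM + 1) scale (−0.88, adjusted p = 0.155, limma).

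EREG was 2.41-fold lower in VP64_A at 0 h (adjusted p = 0.0208, edgeR), 3.72-fold at 6 h (adjusted p = 0.000241), 2.4-fold at 12 h (adjusted p = 0.0182) and 4.83-fold at 24 h (adjusted p = 5.19e-05). The libraries overlapped at 12 h, where VP64_A replicate 1 at 236 CPM exceeded the lowest VP64_Ctrl library at 234 CPM. The call was lost at 0 h without any VP64_A library or VP64_Ctrl replicate 2 or 3 (adjusted p up to 0.0911), and at 12 h without replicate 2 or 3 of either population (adjusted p up to 0.155) and under DESeq2 (0.0562).

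FGF5 was 2.05-fold lower at 0 h (adjusted p = 3.82e-05, edgeR), 2.35-fold at 6 h, 1.77-fold at 12 h and 1.48-fold at 24 h (adjusted p = 0.0374), with no overlap of libraries at any time. At 24 h the call was lost without any 1 of 10 libraries, namely any 24 h library, VP64_A 0 h replicate 1 or 3, and replicate 1 of VP64_Ctrl at 0 or 12 h (adjusted p up to 0.243), and with no filter (0.101). PDGFC was 1.79-fold lower at 0 h (adjusted p = 0.00767, edgeR), 1.68-fold at 6 h and 1.9-fold at 12 h, and did not pass at 24 h (log2 fold change −0.63, adjusted p = 0.0809) except with no filter (0.0317). It lost the call at 0 h without VP64_Ctrl replicate 3 (−0.64), at 6 h without any VP64_A library or VP64_Ctrl replicate 2 or 3 (adjusted p up to 0.209), and at 6 and 12 h on the log2(TPM + 1) scale (adjusted p = 0.462 and 0.118, limma).

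HBEGF was 3.19-fold lower in VP64_A at 0 h (log2 fold change −1.67 ± 0.35, adjusted p = 0.00186, edgeR), where its libraries held 1.29, 2.39 and 0.659 CPM against 5.54, 4.64 and 3.89 CPM, and did not pass later. At 6 h its libraries did not overlap, at 77.3 CPM or less against 80.0 CPM or more, yet the difference of −0.44 did not pass. NRG1 was 1.65-fold lower at 0 h (adjusted p = 0.0386, edgeR), a call lost without any VP64_A library or VP64_Ctrl replicate 1 or 3 (adjusted p up to 0.181), with no filter, in a fit of the compared libraries alone and on the log2(TPM + 1) scale (−1.05, adjusted p = 0.0619, limma). FGF2 did not pass at any time, with −0.90 at 6 h (adjusted p = 0.125) although no libraries overlapped then. It did pass at 6 h in a fit of the compared libraries alone (−0.91, adjusted p = 0.00488, edgeR) and with no filter (adjusted p = 7.25e-05), and at 12 h with no filter (−0.66, adjusted p = 0.0139). PDGFA was at −0.86, −0.30, −0.65 and −0.71 and did not pass.

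**Figure D4:**
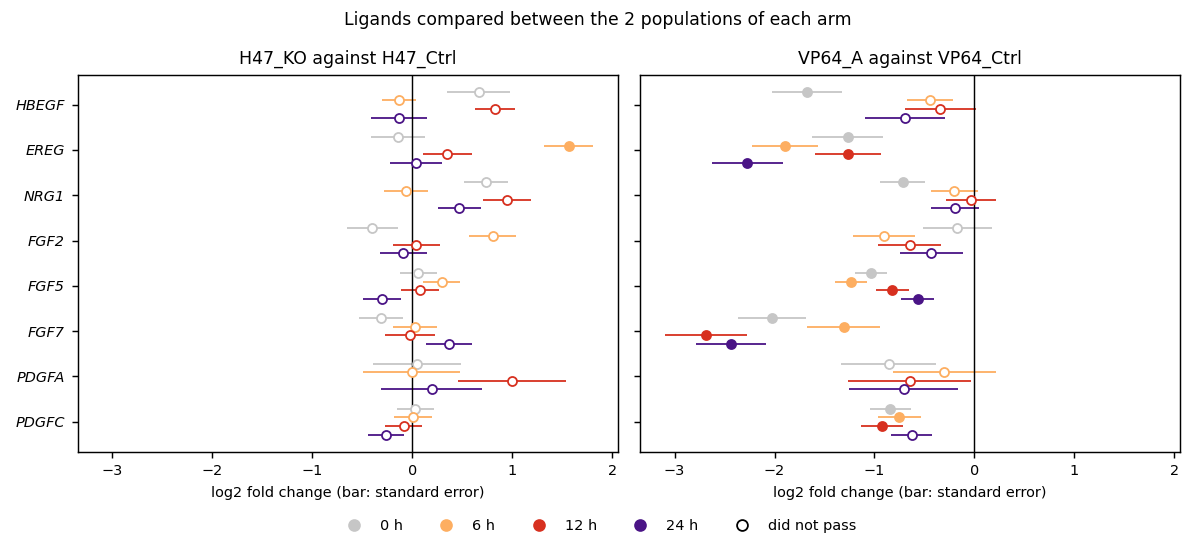
Log2 fold change of each ligand tested in H47_KO against H47_Ctrl and in VP64_A against VP64_Ctrl at 0, 6, 12 and 24 h, with standard errors from edgeR as bars and filled points where the test was passed. All 32 VP64_A values lie below 0, and the H47_KO values lie on both sides of 0, with EREG at 6 h at 1.56.

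Some markers of cell type, both epithelial and fibroblast, also differed in median between VP64_A and VP64_Ctrl. The median level of KRT18, a keratin of simple epithelium, was 3563 CPM in VP64_A against 1086, 1094 and 934 CPM in H47_Ctrl, H47_KO and VP64_Ctrl, and KRT14 was at 16.7 to 80.2 CPM in VP64_A against 2.84 to 11.4 CPM in VP64_Ctrl. The summed level of the 7 epithelial markers was 796 to 7263 CPM against 440 to 2592 CPM in VP64_Ctrl, with EPCAM at 0 in both. KRT8 overlapped between them (7.90 to 26.4 against 7.63 to 22.9 CPM), and KRT19, CDH1 and KRT5 were at most 0.343 CPM in either. Fibroblast markers differed in both directions. The median was 12022 CPM in VP64_A against 6316 CPM in VP64_Ctrl for COL1A2, and 297 against 538 CPM for LUM. The libraries of these populations overlapped for both genes. In H47_Ctrl and H47_KO the medians were 13193 and 10367 CPM for COL1A2 and 291 and 296 CPM for LUM. These were nearer to VP64_A than to VP64_Ctrl. The part of these markers in the lower ligand levels was not tested. In the interaction test, which asks whether the VP64_A effect changed with stimulation, 0 of 24 passed in edgeR and under each alternative. Over all genes 0.0911% passed at 6 h, 0.264% at 12 h and 0.209% at 24 h. An unadjusted p under 0.05 was reached by 3 of the 24 in edgeR, and the share of all genes at that threshold is not given here.

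The control populations of the arms also differed in ligand expression, in a fit of their 24 libraries with its own scaling. Of 8 ligands, 3 passed at 0 h (9.88% of all genes), 3 at 6 h (4.24%), 1 at 12 h (4.57%) and 2 at 24 h (6.07%). HBEGF was 2.21-fold lower in VP64_Ctrl than in H47_Ctrl at 6 h (adjusted p = 4.34e-05, edgeR) and 4.27-fold lower at 12 h (adjusted p = 3.99e-07). EREG was 4.27-fold higher in VP64_Ctrl at 6 h (adjusted p = 1.73e-05, edgeR) and 2.64-fold higher at 24 h (adjusted p = 0.00288), the latter lost without VP64_Ctrl 24 h replicate 2 (log2 fold change 0.97, adjusted p = 0.0594). The H47_Ctrl libraries thus had the higher HBEGF and the lower EREG at 6 h. The arm cannot be told apart from the Cas9 construct, the guide vector or the clone.

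FGF7 was 2.5-fold higher in VP64_Ctrl at 24 h (adjusted p = 3.95e-05, edgeR). The difference between the responses of the controls from 0 to 24 h was past the test for FGF7, at 2.73-fold (log2 1.45 ± 0.29, adjusted p = 0.00934), where 0.51% of all genes passed. For other ligands it passed under an alternative alone: DESeq2 called FGF5 (0.88, adjusted p = 0.0203), and edgeR with no filter on low counts called FGF2 (1.68, adjusted p = 9.48e-08), EREG (1.42, adjusted p = 0.000158) and HBEGF (−1.40, adjusted p = 0.0461). The FGF7 difference was lost without H47_Ctrl 0 h replicate 1 (1.33, adjusted p = 0.0555) and on the log2(TPM + 1) scale (1.06, adjusted p = 0.635, limma). At 0 h HBEGF was higher in VP64_Ctrl (log2 fold change 0.90, adjusted p = 0.0408, edgeR), and FGF2 (−1.001, adjusted p = 0.0353) and FGF5 (−0.63, adjusted p = 0.0172) were lower. HBEGF lost this call without replicate 1 or 2 of either control, FGF2 without H47_Ctrl replicate 1 or 2 or VP64_Ctrl replicate 2 or 3, and FGF5 without H47_Ctrl replicate 1 or 3 or VP64_Ctrl replicate 3 (adjusted p up to 0.283, 0.235 and 0.0903). FGF5 at 6 h was 0.59 higher (adjusted p = 0.0493, edgeR) and lost the call without any 1 of 20 of the 24 libraries (all but H47_Ctrl 6 h replicate 2, VP64_Ctrl 0 h replicates 2 and 3 and VP64_Ctrl 6 h replicate 1; adjusted p up to 0.300). On the log2(TPM + 1) scale none of these 4 passed.

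EREG and FGF2 ordered the 3 libraries of a condition alike in 9 of the 16 conditions, and shared the highest library in 11 and the lowest in 11. The other 27 pairs of ligands tested shared the whole order in 0 to 7 conditions (median 3), the highest library in 2 to 10 and the lowest in 2 to 13, the last being EREG with PDGFC. Over the 16 condition means of log2 CPM, Pearson's r was 0.878 between EREG and FGF2 and 0.795 between EREG and HBEGF, as a description of points that share libraries and stimulation times. Of the 10691 genes compared, FGF2 was only the 120th nearest to EREG and HBEGF the 437th. At 6 h in VP64_Ctrl, for example, replicate 3 was highest for both (1125 CPM of EREG and 369 CPM of FGF2), and at 24 h replicate 2 was (220.3 and 259 CPM).

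Genes whose expression was most like that of each ligand over the 16 conditions, of 10691 compared, are named with Pearson's r and no statement on shared function. For HBEGF these were KLF6 (0.972), ARHGAP31 (0.971) and LUZP1 (0.970), for EREG CEP350 (0.963) and SMURF2 (0.959), and for NRG1 RALGAPB (0.835), SPTLC2 (0.812) and CTTNBP2NL (0.811). For FGF2 they were IFNAR1 (0.974), PANX1 (0.969) and CXCL2 (0.968), for FGF5 CCDC50 (0.956), SEPT10 (0.931) and AK3 (0.923), and for FGF7 GPR126 (0.945), GNPTAB (0.887) and CRIM1 (0.881). PDGFA was nearest to NRXN3 (0.902), KIAA1598 (0.884) and CBL (0.883), and PDGFC to BVES (0.959), TGFB2 (0.959) and DNM3OS (0.938). Every other ligand tested thus had neighbours of higher r than NRG1 did.

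Receptors for these ligands were listed as 14 genes, of which 9 were tested. EGFR, the receptor of HBEGF and EREG, rose at 6 h in all 4 populations, by 1.81 on the log2 scale in H47_Ctrl (adjusted p = 9.14e-11, edgeR), 1.60 in H47_KO, 1.36 in VP64_Ctrl and 1.26 in VP64_A. In H47_Ctrl it went from 33.5, 31.1 and 38.9 CPM at 0 h to 111, 109 and 143 CPM at 6 h, without overlap, and in VP64_A from 37.5, 45.3 and 43.7 CPM to 82.9, 109 and 111 CPM. At 24 h EGFR did not pass in any population (−0.19 to 0.04). ERBB4 had at most 5 counts in a library and FGFR2 none in all 48, and ERBB3, a receptor of NRG1, was lower at 6 h in H47_KO (−1.79), VP64_Ctrl (−2.32) and VP64_A (−2.58) and did not pass in H47_Ctrl (−0.46). At 24 h ERBB3 was higher in H47_Ctrl (1.63) and H47_KO (2.00) and did not pass in the CRISPRa arm (0.01 and 0.11).

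MET, the receptor of HGF, was lower at 12 h in all 4 populations (log2 fold changes −1.79, −1.64, −1.63 and −1.03). PDGFRA, which binds PDGFA and PDGFC, was lower at 24 h, with log2 fold changes of −1.79, −1.38, −1.80 and −0.72 in H47_Ctrl, H47_KO, VP64_Ctrl and VP64_A, all past the test. It was higher in VP64_A than in VP64_Ctrl at 12 h (log2 fold change 1.69, adjusted p = 4.2e-05, edgeR) and at 24 h (1.64, adjusted p = 0.00011), with 26.1, 24.0 and 20.5 CPM against 8.83, 9.40 and 5.11 CPM at 24 h. PDGFRA and its ligand PDGFC thus differed in opposite directions between these populations at 12 h, where both passed. FGFR1 was lower at 24 h in H47_Ctrl (−0.78), H47_KO (−0.69) and VP64_Ctrl (−0.54) and did not pass in VP64_A (−0.04). ERBB2 and PDGFRB passed lower at 12 h in H47_KO (−0.80 and −0.43), and ERBB2 also in VP64_Ctrl (−0.77). At 24 h 1, 1, 0 and 1 receptors were higher and 3, 3, 3 and 1 lower of 9 in H47_Ctrl, H47_KO, VP64_Ctrl and VP64_A, where 10.3%, 15.8%, 16% and 13.6% of all genes passed. No receptor passed between H47_KO and H47_Ctrl at any time.

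**Figure D5:**
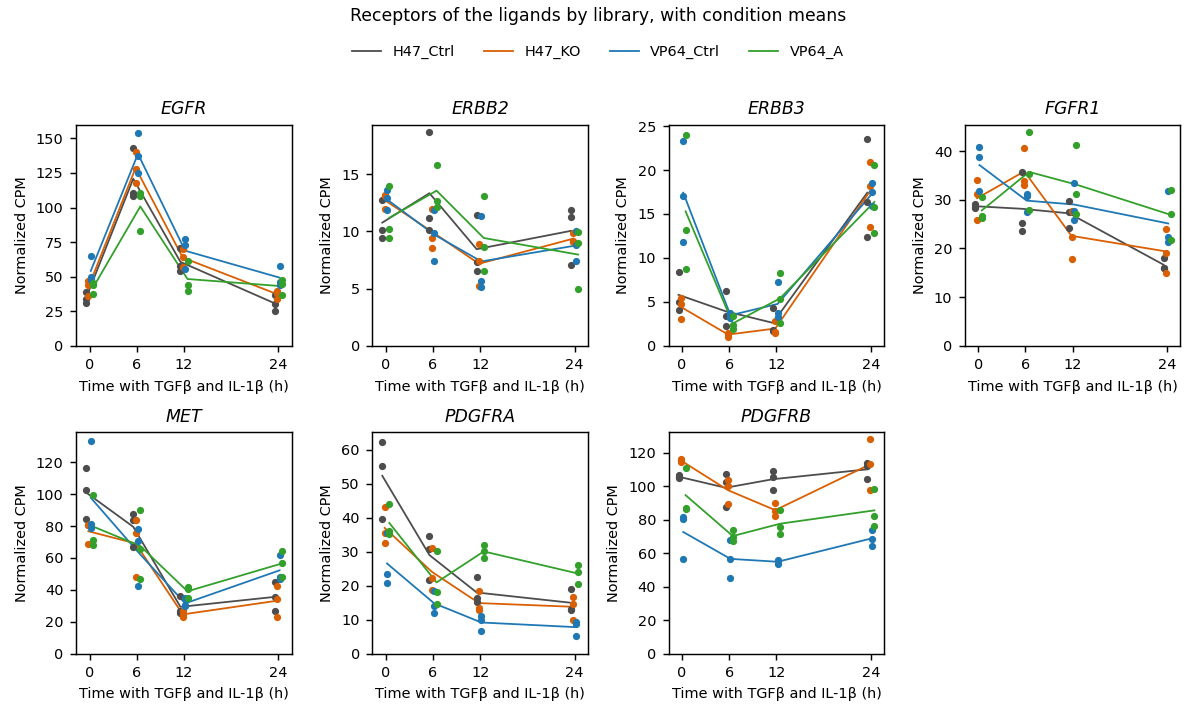
Normalised CPM of 7 receptor genes in each library (linear axes from 0) against hours of stimulation, with points for libraries and lines through the means of 3. EGFR in H47_Ctrl rose from 31.1 to 38.9 CPM at 0 h to 109 to 143 CPM at 6 h, and PDGFRA in VP64_A stayed above VP64_Ctrl at 24 h.

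Other ligands of these families were listed as 21 genes, of which EGF and FGF1 were tested. FGF1 was lower at 12 h in all 4 populations (log2 fold changes −0.57, −0.50, −0.59 and −0.40) and passed as higher at 24 h in VP64_Ctrl. EGF passed as lower at 12 h in H47_Ctrl and as higher at 24 h in H47_KO. AREG, a close relative of EREG, had at most 4 counts in a library. Of 21 genes for ligand shedding and activation, 16 were tested, and at 24 h 5, 5, 4 and 4 were higher and 0, 1, 0 and 0 lower in H47_Ctrl, H47_KO, VP64_Ctrl and VP64_A, with median log2 fold changes of 0.40, 0.36, 0.37 and 0.28. Of all genes, 10.3%, 15.8%, 16% and 13.6% passed in these comparisons. ADAM12 and ADAM19, metalloproteinases that can release EGF family ligands, and PLAU, urokinase, rose in all 4 populations at 24 h, by 2.38, 1.93 and 1.36 on the log2 scale on average.

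Of 21 feedback and early response genes of receptor tyrosine kinases, 19 had enough counts in the CRISPRko fibroblasts and 17 in the CRISPRa fibroblasts. This list was chosen with earlier results of these data known, so its counts beside all genes are a description. At 6 h 13, 14, 11 and 10 were higher and 1, 1, 0 and 1 lower in H47_Ctrl, H47_KO, VP64_Ctrl and VP64_A, with median log2 fold changes of 1.76, 1.39, 1.51 and 1.51, where 15.9%, 23.9%, 28.8% and 17.4% of all genes passed. At 24 h 4, 4, 3 and 3 were higher and 2, 5, 1 and 3 lower, beside 10.3%, 15.8%, 16% and 13.6% of all genes, and the medians were −0.18, 0.16, −0.05 and −0.07. From 6 to 24 h 13, 12, 11 and 10 fell and 1, 2, 1 and 1 rose, beside 14.6%, 24.2%, 18.4% and 12.5% of all genes. IER3 and LRIG1 were higher at 24 h in all 4 populations (5.79 and 3.29 on the log2 scale on average), and DUSP4, a phosphatase of the ERK pathway, was lower in all 4 (−2.11 to −0.79). Between VP64_A and VP64_Ctrl at 0 h, 3 shedding genes were higher and 3 lower, and 1 feedback gene was higher and 3 lower (9.41% of all genes passed). At 24 h 1 shedding gene (GPC1) was lower and none higher, and 1 feedback gene passed in each direction (4.13% of all genes).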

How the data were processed

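Gene-level tables of 48 RNA-seq libraries were analysed. The authors extracted total RNA, purified mRNA from it, prepared libraries with Nextera XT, sequenced them on a NextSeq 500, trimmed reads with Trim Galore, removed ribosomal reads with SortMeRNA, aligned with STAR to GRCh38 and quantified with Salmon; the versions and the strand used in counting are not given in the sources used here. The deposited values were estimated counts, of which 6.38% were not whole, and TPM, which the authors normalised to transcript length and depth. The counts were rounded to whole numbers and tested with edgeR 4.0.16 (R 4.3.3): TMM scaling, filterByExpr with a minimum count of 10 and a minimum total of 15, a quasi-likelihood fit over the 24 libraries of each arm (10962 and 10980 genes) or of the control populations (10987), and Benjamini-Hochberg adjustment over all genes. Standard errors were derived from the log2 fold change and its F statistic. The fits were tested on simulated counts. Alternatives were DESeq2 1.42.0, its size factors in edgeR, no filter, a replicate block, fits of the compared libraries alone, limma 3.58.1 with TPM on a log2 scale (pseudocount 1 or 0.1), and each library left out in turn.

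The ligands and all gene lists were chosen with earlier results of these data known. All 10 ligands and their named receptors were reported; from other lists, at most 4 genes that passed in 1 direction at 24 h in all 4 populations, and for each ligand tested the 3 genes with the highest Pearson correlation, of which 1 is not reported here. EGF and FGF1 were named as the tested members of their list, and AREG and GPC1 were outside that rule, chosen after their values were seen. The paper states in general terms that cell culture experiments used independent biological replicates, while the labels tie no library to a culture, so p-values measure the spread between these libraries. Same-numbered libraries were compared between the populations of an arm at the same time. Of these 24 pairs, 3 had deviations from their group means that correlated over 0.1 (range −0.047 to 0.135). Libraries of a population at different times were not compared in this way, so whether replicate numbers mark shared cultures cannot be decided here. No 2 libraries agreed within counting noise. Sequences and positions came from RefSeq and the GRCh38 annotation.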

Additional observations from a re-analysis of the deposited data

Results flagged for a closer look

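FGF7 was singled out for a closer look because its response differed between groups of cells by a test of the difference itself. Its change from 0 to 24 h in VP64_Ctrl exceeded that in H47_Ctrl by 1.45 ± 0.29 on the log2 scale (adjusted p = 0.00934, edgeR, 3 libraries a condition). FGF7 rose 2.34-fold in VP64_Ctrl and changed by −0.22 on the log2 scale in H47_Ctrl. Without H47_Ctrl 0 h replicate 1 the difference was 1.33 with an adjusted p of 0.0555, and on the log2(TPM + 1) scale it was 1.06 with an adjusted p of 0.635 (limma). The same difference passed for FGF5 under DESeq2 (0.88) and for FGF2 (1.68), EREG (1.42) and HBEGF (−1.40) with no filter on low counts. In H47_KO, FGF7 was at 12.4 to 14.5 CPM at 24 h and 8.65 to 11.5 CPM at 0 h, a rise that did not pass. The arm cannot be told apart from the Cas9 construct, the guide vector or the clone.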

How the results depend on the processing

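Of the 103 tests of a ligand that passed, none changed direction under an alternative, and 100 still passed under DESeq2 (4 others were gained), 103 with DESeq2 size factors, 97 with no filter (13 gained), 98 in fits of the compared libraries alone (3 gained) and 71 with limma on either TPM scale (6 gained with a pseudocount of 1 and 5 with 0.1). On log2(TPM + 0.1) the median of all genes moved by −0.76 to 0.60 and on log2(TPM + 1) by −0.60 to 0.45 from its value in edgeR, and in the other fits by less than 0.1, so changes on the TPM scales are relative to those shifts. For VP64_Ctrl at 6 h, 492 of 6177 calls over all genes were higher on log2(TPM + 1), against 1777 of 3165 in edgeR. The knockout effect, with 1 ligand past the test, had 3 under DESeq2, 3 with no filter, 2 with the compared libraries alone and 0 with limma on either TPM scale; its interaction with stimulation, with 0, had 1 under DESeq2 and 2 with no filter. The comparison of the controls, with 10, had 5 with limma on either TPM scale. The fall of FGF7 from 6 to 24 h in H47_KO, which did not pass, turned to 0.093 on log2(TPM + 1) and 0.118 on log2(TPM + 0.1), and of the 153 tests that passed under no setting, 41 changed sign under an alternative other than leaving out a library. Why calls were lost was not tested.

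With each library left out in turn, the count of ligand tests past the threshold was 28 to 32 for stimulation of CRISPRko fibroblasts, 25 to 27 for CRISPRa fibroblasts, 1 to 2 for the knockout effect, 14 to 18 for VP64_A, 0 to 1 and 0 to 0 for the interactions, 5 to 13 for the controls (5 without H47_Ctrl 0 h replicate 1), and 8 to 11 and 6 to 8 for 24 h against 6 h in the arms. The replicate block gave 31, 27, 1, 17, 0, 0, 10, 10 and 7 in the same order and changed no call. Low counts limited HGF, PDGFD, PDGFA, HBEGF at 0 and 24 h and FGF7, and 3 libraries a condition limited every test.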
